A study of Homo sapiens with 12 samples.

Results

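The genes described here are C1orf220, RALGPS2-AS1, RALGPS2, MYOZ2, PRKG1, TMEFF2, GRIA3 and SLITRK5, 8 of the 40591 lines of the count table that carry a gene symbol. They were selected by symbol because earlier readings of the same table found them high in the GSTA4 libraries relative to the other groups. All 8 passed the filter on low counts, which left 15179 genes for testing. Because their level in the GSTA4 libraries chose them, every difference between GSTA4 and another group is given for them as a description, with no test. For these genes, only differences among the other groups are tested. RALGPS2-AS1 and GRIA3 passed the filter only through the GSTA4 libraries, so 6 of the 8 are tested there.

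The study sequenced poly(A) RNA from the human cell line ARPE-19, derived from retinal pigment epithelium (RPE), in 4 groups of 3 libraries. Cells labelled GFP, GSTA4 and OSK were stable cells taken 4 days into expression of an open reading frame, and WT cells have no reading frame named. GFP is a fluorescent protein, GSTA4 is a glutathione S-transferase that conjugates the lipid peroxidation product 4-hydroxynonenal, and OSK is the usual name for the reprogramming factors OCT4, SOX2 and KLF4. Nothing in the labels tells if the libraries of 1 group are separate cultures, or if a stable line was 1 clone or a pool. P-values therefore measure the spread between these libraries, which may be technical, and the reading frame and the line that carries it cannot be told apart.

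Library totals ran from 12630675 to 17045454 reads. GSTA4 itself stood at 415 ± 17.6 CPM (reads set against a common library size, SD over n = 3 libraries as in all values given with ±) in the GSTA4 group, 8.78 ± 0.849 in GFP, 5.46 ± 1.46 in WT and 20.2 ± 2.61 in OSK, which matches the group label. GFP replicate 1 had the fewest reads, yet 27349 named genes were detected in it and 19488 to 22073 elsewhere. The RPE label was checked on 12 markers. MITF, OTX2, PMEL, KRT8 and KRT18 were present in every group, while RPE65, the visual cycle isomerase, had 1 read in all in the GSTA4 group and between 6 and 22 in each of the others, and TTR had between 0 and 5 reads per group.

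Background on the genes is brief. Ral proteins are small GTPases that steer vesicle traffic and cell shape, and RALGPS2 is a Ral exchange factor that switches them on. RALGPS2-AS1 is a long noncoding RNA read from the opposite strand at the start of RALGPS2, and C1orf220 is annotated as a noncoding RNA. MYOZ2 encodes calsarcin-1, a protein of the muscle Z-disc that binds calcineurin, and PRKG1 encodes the cGMP-dependent protein kinase that relaxes smooth muscle. TMEFF2 is a transmembrane protein with follistatin-like and EGF-like domains, GRIA3 is a subunit of AMPA-type glutamate receptors, and SLITRK5 is a leucine-rich-repeat protein that organises synapses. All but RALGPS2 and the noncoding RNAs are best known from muscle, brain or vessels rather than from the RPE.

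Of the 8 genes, 3 lie together on chromosome 1. In RefSeq coordinates on GRCh38.p14, C1orf220 spans chr1:178542796-178548889 on the plus strand, and RALGPS2 spans chr1:178725244-178921840 on the same strand, 176354 bases further on. RALGPS2-AS1 spans chr1:178723009-178726284 on the minus strand and overlaps RALGPS2 by 1041 bases. The other 5 genes lie apart, with MYOZ2 at chr4:119135832-119187789, TMEFF2 at chr2:191949046-192194933, GRIA3 at chrX:123184278-123490915, SLITRK5 at chr13:87671371-87679616 and PRKG1 at chr10:50990888-52298350. The role of the builds named in the submitters' processing notes is not given, so these positions are RefSeq's and not those of the counting.

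The sequence just upstream of 3 of the genes is shown because it sets both chromosome 1 genes beside MYOZ2, the gene whose upstream sequence is poorest in CG pairs among the protein-coding genes with a single listed promoter. Each is from RefSeq on GRCh38.p14, plus strand, 5′ to 3′, and ends before the first base that the GENCODE v29 annotation gives to the gene. Capitals mark CG pairs.
C1orf220, chr1:178542546-178542751: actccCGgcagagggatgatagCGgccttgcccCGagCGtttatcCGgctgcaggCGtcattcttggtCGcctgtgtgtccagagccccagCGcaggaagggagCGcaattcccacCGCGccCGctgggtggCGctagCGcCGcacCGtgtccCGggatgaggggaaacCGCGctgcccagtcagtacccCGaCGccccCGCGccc
RALGPS2, chr1:178724994-178725146: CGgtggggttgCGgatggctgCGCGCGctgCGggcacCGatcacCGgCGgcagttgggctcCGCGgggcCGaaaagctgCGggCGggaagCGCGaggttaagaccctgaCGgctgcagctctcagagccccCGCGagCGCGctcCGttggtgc
MYOZ2, chr4:119135582-119135783: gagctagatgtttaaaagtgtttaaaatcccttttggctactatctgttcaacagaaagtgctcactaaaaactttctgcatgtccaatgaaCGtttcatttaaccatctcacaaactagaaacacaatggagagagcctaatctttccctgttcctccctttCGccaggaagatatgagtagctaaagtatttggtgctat

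These stretches hold 23 CG pairs in 206 bases upstream of C1orf220, 22 in 153 bases upstream of RALGPS2 and 2 in 202 bases upstream of MYOZ2. Over the full 250 bases, the G and C content was 71.6%, 77.2% and 39.2%, against a median of 58% over 34786 promoters of that length. The RALGPS2 stretch lies inside RALGPS2-AS1, so it is also sequence of the antisense gene. Promoters were listed for 7 of the 8 genes, GRIA3 being the exception. TGACNNNGC, the core of the antioxidant response element, was searched on both strands. It matched once upstream of C1orf220, in no promoter of the other matched genes, and in 10.9% of the 34786. A match is only a match of letters.

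C1orf220 was nearly silent outside the GSTA4 group. It had 250, 202 and 207 reads in GSTA4 replicates 1 to 3, which is 15.1 ± 0.823 CPM. GFP had 7, 4 and 13 reads and WT had 11, 9 and 14. OSK had 0, 2 and 3 reads, each at or under the 3 reads that a count of 0 allows. The lowest GSTA4 library thus held more than any library of another group. Per effective library size, the summed GSTA4 reads were 26.3 times those of GFP (95% exact interval 17.5 to 41.4), 20.7 times those of WT (14.7 to 30.2) and 133 times those of OSK (56.8 to 412). The log2 fold change against OSK was 6.95, and 7.64 without OSK replicate 3, which held 3 of the 5 OSK reads. Intervals of this kind cover counting error only, since no molecular identifiers are stated. They take no account of the choice of these genes for their GSTA4 level, and are not a test of the difference.

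RALGPS2, the Ral exchange factor, was expressed in every group. Its reads were 1465, 1086 and 1291 in GSTA4, 272, 305 and 289 in GFP, 370, 300 and 353 in WT, and 213, 233 and 277 in OSK. On the CPM scale that is 87.7 ± 5.85 in GSTA4, 20.7 ± 1.11 in GFP, 21.9 ± 1.10 in WT and 16.4 ± 2.62 in OSK. GFP and WT overlapped, OSK lay just below them, and GSTA4 stood 4.24-fold above GFP, 4.001-fold above WT and 5.34-fold above OSK. In bulk RNA, a larger share of cells expressing the gene and more RNA per cell cannot be told apart.

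RALGPS2-AS1 had 100, 56 and 66 reads in GSTA4, and 12, 3 and 3 in GFP. WT had 0, 1 and 5 reads and OSK had 2, 2 and 4. GSTA4 did not overlap any other group, while the other groups overlapped among themselves. GSTA4 replicate 1 stood above replicates 2 and 3, and the coefficient of variation of CPM within GSTA4 was 22.99%, against 2.22% to 12.7% for the other 7 genes. Summed reads were 11.8 times those of GFP (7.31 to 20.3), 39.6 times those of WT (17.9 to 109) and 28.05 times those of OSK (13.99 to 65.8). The value against WT rests partly on WT replicate 3, which held 5 of the 6 WT reads. The fitted log2 fold change against WT was 5.21 with it and 6.90 without it. Likewise, GFP replicate 1 held 12 of the 18 GFP reads, and the log2 fold change against GFP was 3.51 with it and 4.54 without it.

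Whether reads were counted by strand is not given in the sources used here, so reads of RALGPS2 and RALGPS2-AS1 cannot be told apart where the genes overlap. In GENCODE v29 their exons share 273 bases, which is 13.8% of the exon bases of RALGPS2-AS1. A further part of the RALGPS2-AS1 exon lies within the span of RALGPS2 but outside its exons. There, unspliced RALGPS2 reads cannot be told apart from antisense reads without the strand. The antisense line held 6.83, 5.16 and 5.11 reads per 100 RALGPS2 reads in GSTA4, between 0 and 1.44 in the WT and OSK libraries, 0.984 and 1.04 in GFP replicates 2 and 3, and 4.41 in GFP replicate 1. C1orf220 shares 397 exon bases, 14.3% of its own, with TEX35. Both genes are on the plus strand, so counting by strand would not separate them. TEX35 had 12, 3 and 2 reads in GSTA4, 5, 0 and 0 in GFP, 1, 0 and 0 in WT and none in OSK, a small count beside that of C1orf220.

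MYOZ2, the Z-disc protein, had 963, 833 and 839 reads in GSTA4, 85, 78 and 65 in GFP, 90, 130 and 165 in WT, and 4, 15 and 11 in OSK. In CPM these are 60.4 ± 2.48, 5.48 ± 1.03, 8.28 ± 2.33 and 0.668 ± 0.344. GFP and WT overlapped, while OSK lay below both. The GSTA4 level was 11.05-fold that of GFP, 7.30-fold that of WT and 87.8-fold that of OSK.

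PRKG1, the cGMP-dependent kinase, was graded across the groups. It had 1067, 988 and 1086 reads in GSTA4, 438, 383 and 433 in GFP, 234, 290 and 344 in OSK, and 85, 89 and 98 in WT. The means were 72.1 ± 3.84, 30.02 ± 2.97, 19.7 ± 3.95 and 5.86 ± 0.627 CPM, with no overlap between neighbours in that order. GSTA4 stood 2.40-fold above GFP, 3.66-fold above OSK and 12.3-fold above WT.

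TMEFF2, the follistatin-domain protein, followed the same order of groups. Its reads were 1998, 1711 and 1926 in GSTA4, 535, 742 and 741 in GFP, 175, 195 and 204 in OSK, and 109, 69 and 96 in WT. That gives 129 ± 2.87, 48.0 ± 6.55, 13.0 ± 1.13 and 5.83 ± 0.869 CPM, again without overlap. The GSTA4 libraries varied by only 2.22% (coefficient of variation), and their mean was 2.69-fold that of GFP, 9.91-fold that of OSK and 22.02-fold that of WT.

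GRIA3, the AMPA receptor subunit, had few reads outside GSTA4. There were 168, 123 and 143 reads in GSTA4, 8, 9 and 14 in GFP, 2, 3 and 8 in WT, and 0, 8 and 3 in OSK. WT and OSK overlapped, and several of their libraries were at or under 3 reads. The summed GSTA4 reads were 13.4 times those of GFP (9.32 to 20.01), 35.7 times those of WT (20.7 to 67.6) and 39.9 times those of OSK (22.1 to 80.5). Single libraries weigh here. OSK replicate 2 held 8 of the 11 OSK reads, and the log2 fold change against OSK was 5.27 with it and 6.44 without it. WT replicate 3 held 8 of the 13 WT reads, and the log2 fold change against WT was 5.12 with it and 5.81 without it.

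SLITRK5, the synaptic adhesion protein, is the only member for which OSK came next after GSTA4. Reads were 971, 1004 and 1150 in GSTA4, 366, 463 and 390 in OSK, 170, 219 and 247 in GFP, and 72, 63 and 127 in WT. The means were 72.0 ± 9.15, 27.6 ± 1.64, 15.1 ± 1.99 and 5.53 ± 1.70 CPM, with no overlap between neighbours. GSTA4 was 2.61-fold above OSK, 4.75-fold above GFP and 12.9-fold above WT.

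**Figure D1:**
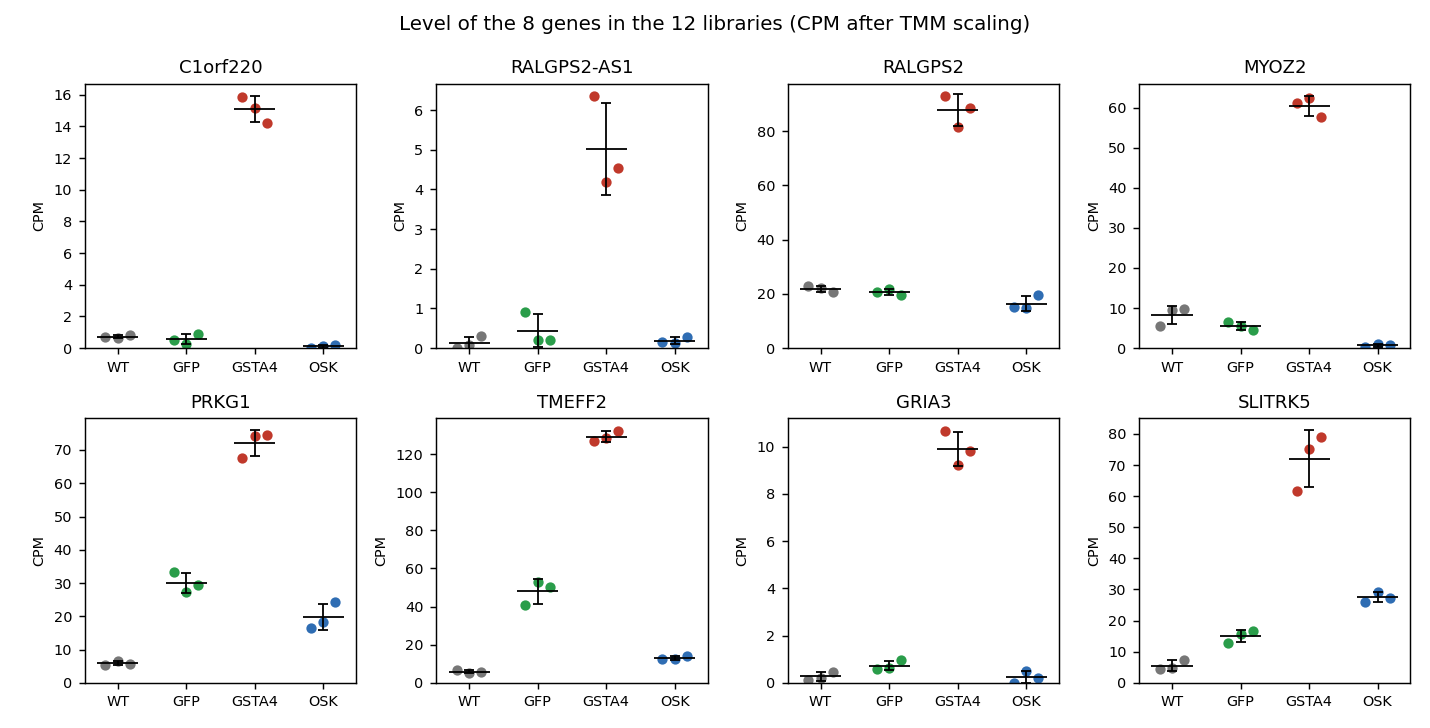
Each panel plots 1 gene, with the 4 groups on the x axis and CPM after TMM scaling on a linear y axis that starts at 0. Points are the 3 libraries of a group, long bars the mean and whiskers the SD. In all 8 panels the 3 GSTA4 points lie above the other 9, and WT lies lowest for PRKG1, TMEFF2 and SLITRK5 while OSK lies lowest for MYOZ2.

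The table as a whole gives the background for such a pattern. The lowest GSTA4 library lay above the highest of the other 9 libraries in 1469 of 15179 tested genes, or 9.68%, and in all 8 genes here, as their choice made likely. To order the genes, the lowest GSTA4 level was divided by the highest level elsewhere, after adding 0.1 CPM to each. GSTA4 itself came first at 17.5, C1orf220 came at place 2 with 14.6, GRIA3 at place 5 with 8.88, MYOZ2 at place 8 with 5.88, RALGPS2-AS1 at place 11 with 4.25 and RALGPS2 at place 16 with 3.53. TMEFF2 (2.38), SLITRK5 (2.10) and PRKG1 (2.03) came at places 36, 45 and 53, the last of them next to the end of the 54 genes with a ratio of at least 2. Without GFP replicate 1, a check added after the data were seen, RALGPS2-AS1 moved from place 11 to place 5. The same ratio reached 2 in 327 genes for OSK, 6 for GFP and 4 for WT, so the GSTA4 group had more such genes than either control and fewer than OSK.

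**Figure D2:**
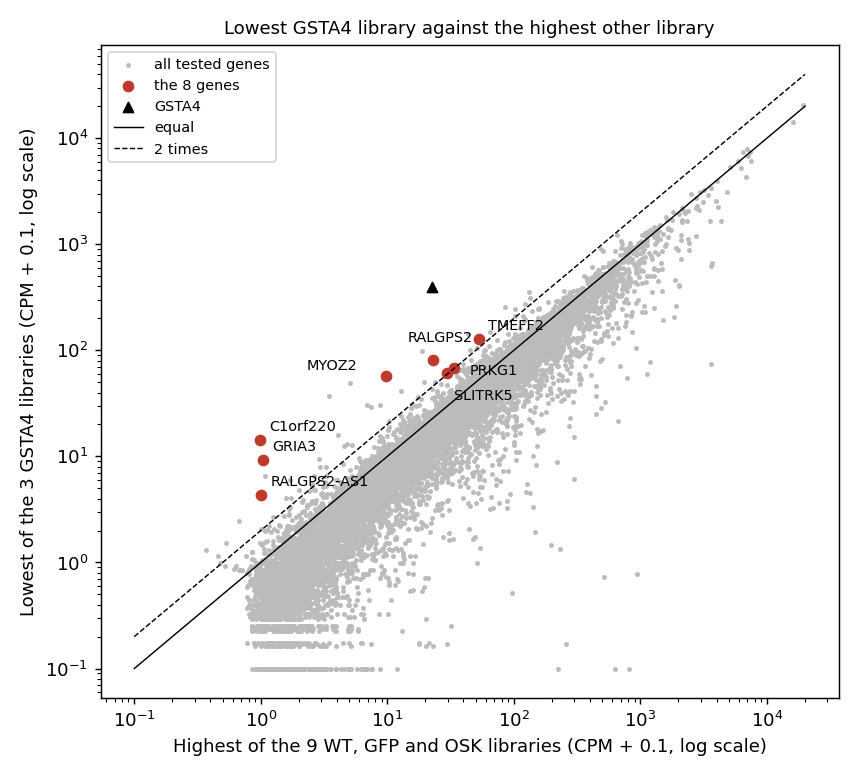
For every tested gene, the y axis shows the lowest of the 3 GSTA4 libraries and the x axis the highest of the 9 others, both as CPM + 0.1 on log scales. The solid line marks equal levels and the dashed line a ratio of 2. C1orf220, GRIA3 and MYOZ2 stand far above the dashed line beside GSTA4 (triangle), while SLITRK5 and PRKG1 lie close to it.

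The remaining groups differed among themselves in the 6 genes tested. These tests (edgeR quasi-likelihood, Benjamini-Hochberg over all 15179 genes, threshold 0.05) use no GSTA4 fold change, and each group serves in more than one comparison. Between GFP and WT, 22.2% of all tested genes passed, and 4 of the 6 genes did, 3 higher and 1 lower in GFP. TMEFF2 was 8.19-fold higher in GFP (log2 3.03, SE 0.117, edgeR adjusted p = 9.81e-13). PRKG1 was 5.13-fold higher (log2 2.36, SE 0.135, edgeR adjusted p = 4.84e-10), and SLITRK5 2.71-fold higher (log2 1.44, SE 0.165, edgeR adjusted p = 4.62e-06). The GFP and WT libraries did not overlap for these 3 genes, nor for GRIA3, which was not tested. The share of all genes without such overlap was not counted.

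MYOZ2 was lower in GFP than in WT by a log2 change of -0.60 (edgeR adjusted p = 0.0335), but the libraries overlapped and the call did not hold in the fit of those 6 libraries alone (0.103), in that of the 9 WT, GFP and OSK libraries (0.111), or without WT replicate 2 (0.110), WT replicate 3 (0.140), GFP replicate 2 (0.0822) or GFP replicate 3 (0.149). RALGPS2 (log2 -0.08, edgeR adjusted p = 0.608) and C1orf220 (log2 -0.34, edgeR adjusted p = 0.612) did not pass.

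Between OSK and GFP, 45.9% of all genes passed, and of the 6 genes 1 was higher and 5 were lower in OSK. MYOZ2 was 7.95-fold lower (log2 -2.99, SE 0.311, edgeR adjusted p = 1.04e-07) and TMEFF2 3.69-fold lower (log2 -1.88, SE 0.105, edgeR adjusted p = 8.19e-12). C1orf220 was lower as well (log2 -2.25, SE 0.627, edgeR adjusted p = 0.0058), on 5 reads against 24. Without OSK replicate 3 the value was -2.94, and over the 6 OSK and GFP libraries alone the gene did not pass the filter. PRKG1 fell by a smaller amount (log2 -0.61, edgeR adjusted p = 0.000228), and SLITRK5 rose 1.82-fold (log2 0.86, SE 0.138, edgeR adjusted p = 3.06e-05).

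RALGPS2 was lower in OSK than in GFP by log2 -0.33 (edgeR adjusted p = 0.0134), the smallest of these differences. It lost the call without GFP replicate 2 (0.0633), OSK replicate 1 (0.0772) or OSK replicate 2 (0.0882).

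Against WT, OSK had 3 of the genes higher and 3 lower, where 45.4% of all genes passed. SLITRK5 was 4.94-fold higher (edgeR adjusted p = 1.28e-10), PRKG1 3.37-fold higher (1.48e-09) and TMEFF2 2.22-fold higher (3.23e-07). MYOZ2 was 12.03-fold lower (1.76e-09), RALGPS2 1.33-fold lower (0.00242), and C1orf220 lower by log2 -2.59 (0.00108), or -3.28 without OSK replicate 3. The 6 genes therefore split in OSK: PRKG1, TMEFF2 and SLITRK5 were above WT there, as they were in GFP, while MYOZ2, C1orf220 and RALGPS2 were below it. All 6 were above WT in GSTA4, which their choice made likely and which was not tested.

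**Figure D3:**
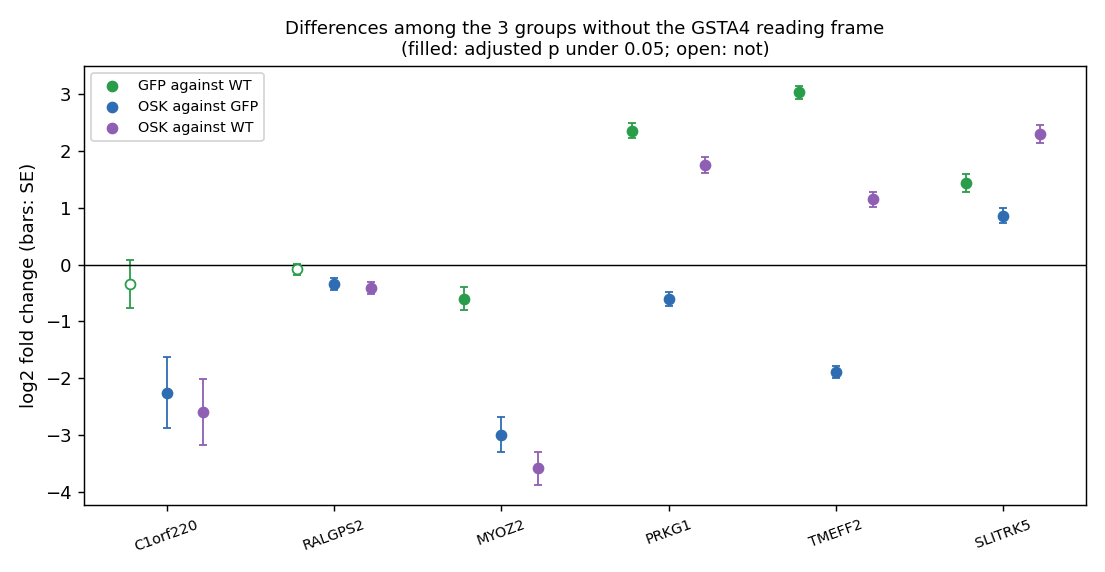
The y axis gives the log2 fold change with its SE for the 6 tested genes on the x axis, in the comparisons GFP against WT, OSK against GFP and OSK against WT. Filled points passed an adjusted p of 0.05. The green and purple points of PRKG1, TMEFF2 and SLITRK5 are above 0, and the blue and purple points of MYOZ2 and C1orf220 are below -2.

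Genes next to the 8 were examined to see how far along the chromosome the GSTA4 pattern reached. A neighbourhood was the 5 nearest tested genes on each side, at whatever distance. These genes, not chosen for their level, can be tested in the GSTA4 comparisons. Over all tested genes, 29.2% passed for GSTA4 against GFP, 14.7% being higher in GSTA4. The figures were 38.6% and 19.7% against WT, and 47.8% and 23.8% against OSK. Of the 60 neighbours at the 6 loci, 13 were higher and 7 lower against GFP, 13 and 13 against WT, and 15 and 16 against OSK. These shares lie near those over all genes.

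At the chromosome 1 locus, RASAL2 stands out by its level. This GTPase-activating protein, which switches Ras off, lies on the side of C1orf220 away from RALGPS2. It had 2652, 1985 and 2293 reads in GSTA4, 819, 898 and 946 in GFP, 850, 748 and 941 in WT, and 439, 575 and 431 in OSK, with GSTA4 above all. The log2 fold change was 1.32 against GFP (SE 0.0703, edgeR adjusted p = 1.12e-11), 1.54 against WT (SE 0.0707, 7.14e-13) and 2.28 against OSK (SE 0.0742, 9.97e-16). RASAL2 was also lower in OSK than in GFP (log2 -0.96, edgeR adjusted p = 1.56e-09), as RALGPS2 and C1orf220 were. On the same side, RASAL2-AS1 (log2 0.06, edgeR adjusted p = 0.910), ASTN1 (0.78, 0.123) and PAPPA2 (-0.92, 0.515) were not called against GFP. Of these, only ASTN1 was higher against WT (1.86, 0.00107). Against OSK, RASAL2-AS1 was higher (1.32, 0.00447), PAPPA2 lower (-3.10, 0.00247) and ASTN1 not called (-0.76, 0.0669).

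On the other side of RALGPS2, none of the next 4 well-expressed genes was called against GFP. FAM20B, a xylose kinase, gave log2 0.03 against GFP (edgeR adjusted p = 0.809) and 0.07 against WT (0.471), and was lower against OSK (-0.32, 0.000501). The torsin TOR3A gave -0.09 (edgeR adjusted p = 0.535) and -0.11 (0.378), and was lower against OSK (-0.94, 2.37e-08). ABL2, a tyrosine kinase, was not called against GFP (log2 -0.17, edgeR adjusted p = 0.267), but was higher against WT (0.63, 0.000152) and OSK (1.06, 1.28e-07). SOAT1, which esterifies cholesterol, gave 0.06 (edgeR adjusted p = 0.499), -0.10 (0.209) and -0.13 (0.0957).

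Low counts limit RASAL2-AS1, ASTN1 and PAPPA2, and 2 further neighbours. CRYZL2P, a transcribed pseudogene, was higher by log2 1.15 against GFP (edgeR adjusted p = 0.0313), 2.45 against WT (0.000138) and 1.52 against OSK (0.00338), from 30 to 40 reads per GSTA4 library. The call against GFP was lost without GFP replicate 1 (0.104) or 3 (0.0933) and without GSTA4 replicate 2 (0.110) or 3 (0.0981). ANGPTL1, a secreted angiopoietin-like protein whose gene lies inside RALGPS2 on the other strand, had 11, 18 and 5 reads in GSTA4, 14, 1 and 2 in GFP, 1, 0 and 2 in WT and 3, 0 and 3 in OSK. It was not called against GFP (log2 0.92, edgeR adjusted p = 0.401), but was without GFP replicate 1 (log2 2.82, 0.0387). Its reads cannot be told apart from unspliced RALGPS2 reads without the strand.

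**Figure D4:**
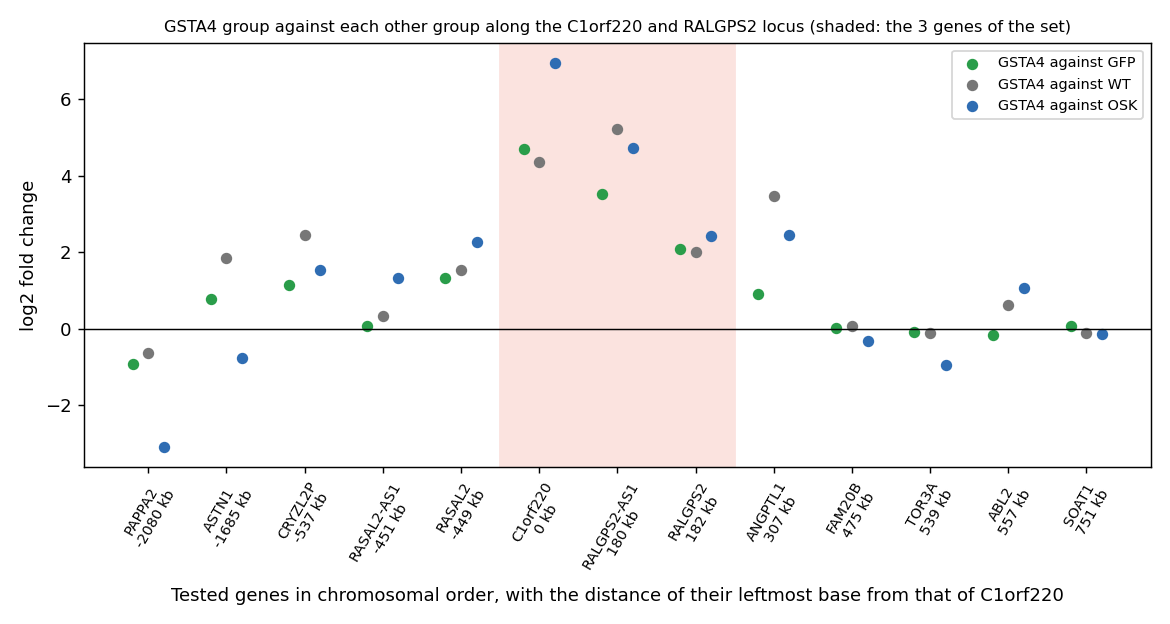
Tested genes are in chromosomal order on the x axis, each with the distance in kb of its leftmost base from that of C1orf220, and the y axis gives the log2 fold change of GSTA4 against GFP, WT and OSK. Shading marks the 3 selected genes. RASAL2 and CRYZL2P are above 0 in all 3 comparisons, and FAM20B and SOAT1 lie between -0.32 and 0.07.

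At the other 5 loci, the neighbours mostly did not follow. Near MYOZ2, PDE5A, the cGMP-specific phosphodiesterase, was the 1 gene of 10 that was higher in all 3 comparisons (log2 0.30 against GFP, 0.37 against WT and 1.08 against OSK). Its call against GFP (edgeR adjusted p = 0.0142) was lost without GSTA4 replicate 1 (0.0906). Near GRIA3 the only such gene was STAG2, a cohesin subunit, with log2 0.22, 0.20 and 0.21. Each of these calls was lost without 1 library, against GFP without GFP replicate 2 (edgeR adjusted p = 0.122), against WT without WT replicate 1 (0.0705) and against OSK without OSK replicate 3 (0.0795). Among the neighbours of TMEFF2, SLITRK5 and PRKG1 none was higher in all 3, while 2 of those of TMEFF2 and 1 of those of SLITRK5 were lower in all 3. Some of these neighbours lie far off. The first tested gene after TMEFF2, SLC39A10, started 3664 kb from the leftmost base of TMEFF2. For SLITRK5 the first such gene, MIR17HG, started at 3676 kb. Next to SLITRK5, the noncoding MIR4500HG had 18, 21 and 28 reads in GSTA4, 8, 5 and 1 in GFP, 12, 1 and 1 in WT, and 7, 11 and 10 in OSK. It was higher against GFP (log2 2.17, edgeR adjusted p = 0.0158) and WT (2.34, 0.00696) and not called against OSK (1.27, 0.0802). The call against GFP was lost without GFP replicates 2 (0.0532) or 3 (0.0808) or GSTA4 replicate 3 (0.0681), and its value was 2.83 without GFP replicate 1. The value against WT was 4.39 without WT replicate 1.

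Related genes were read from lists written with earlier results of these data known. Among 14 tested Ral GTPases, their regulators and effectors other than RALGPS2, 1 was higher and 3 were lower in GSTA4 against GFP, and likewise against WT. RALA, a GTPase that RALGPS2 acts on, was lower in all 3 comparisons (57.4 ± 1.69 CPM in GSTA4, 77.0 ± 3.07 in GFP, 88.1 ± 4.805 in WT and 69.7 ± 0.782 in OSK). Its log2 change against GFP was -0.42 (edgeR adjusted p = 3.76e-05). The paralogous exchange factor RALGPS1 was lower too, by log2 -0.47 against GFP (edgeR adjusted p = 0.00114). Its call against WT (-0.28, 0.028) was lost without GSTA4 replicate 1 (0.110) or WT replicate 1 (0.151). Further called members, named after their values were seen, included RGL1 (-0.27) against GFP and CNKSR2 (0.35) against WT. The median log2 change of the list was -0.01 against GFP, beside 0.01 over all genes.

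Among calcineurin and Z-disc genes, the list around MYOZ2, 2 of 12 were higher and 2 lower against GFP, and 3 and 2 against WT. FLNC, the muscle filamin that binds calsarcins, stood at 1246 ± 19.2 CPM in GSTA4, 590 ± 58.4 in GFP, 588 ± 88.0 in WT and 459 ± 25.1 in OSK. It was higher by log2 1.08 against GFP (edgeR adjusted p = 7.38e-09), 1.08 against WT (5.89e-09) and 1.44 against OSK (2.60e-11). RCAN1, a calcineurin inhibitor, was higher by 0.44 against GFP (0.00685). ACTN1 (-0.39, 0.0015) and PDLIM5 (-0.39, 4.63e-05), which bind in actin bundles and Z-discs, were lower. ACTN2, the Z-disc alpha-actinin of striated muscle, was higher against OSK (log2 2.31, edgeR adjusted p = 0.0013) and WT (1.45, 0.0225) and not called against GFP (-0.14, 0.851). The call against WT was lost without GSTA4 replicates 1 (0.0555) or 3 (0.103) or WT replicates 1 (0.0662) or 2 (0.058). Striated muscle markers as a list summed to 71.1 to 98.1 CPM in the GSTA4 libraries, 89.8 to 148 in GFP, 81.3 to 101 in WT and 11.4 to 16.0 in OSK. Nearly all of this was TTN, with MYH7 at 0 reads in GSTA4 and OSK. The sum was lowest in OSK, where MYOZ2 was lowest, and was not raised in GSTA4, and its part in the MYOZ2 differences was not tested.

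Of 14 tested genes of cGMP signalling other than PRKG1, 5 were higher and 5 lower against GFP, 4 and 4 against WT, and 3 and 6 against OSK. Over all genes, 29.2%, 38.6% and 47.8% passed in these comparisons. The list was written with earlier results known, so its share is a description only. The receptor NPR2, a guanylyl cyclase, was higher (log2 0.85 against GFP, edgeR adjusted p = 5.14e-05), whereas GUCY1B1, a subunit of the nitric oxide-sensitive cyclase, was lower (-1.22, 0.00137). PDE1C, which breaks cGMP down, rose from 29.6 ± 1.90 CPM in GFP to 65.3 ± 5.15 in GSTA4 (log2 1.14, SE 0.116, edgeR adjusted p = 1.96e-07). KCNMA1, a potassium channel that the kinase phosphorylates, was higher by 0.92 (0.000614). The remaining calls against GFP were GUCY1A2 (0.63) and PDE5A (0.30) among the higher genes and NPR3 (-0.43), VASP (-0.31), PPP1R12A (-0.24) and NPR1 among the lower. Without 1 library, the calls of VASP and PPP1R12A were lost (GSTA4 replicate 2, 0.071 and 0.0843, or replicate 3, 0.0635 and 0.0628), and that of PPP1R12A also without GFP replicate 1 (0.116) or GSTA4 replicate 1 (0.0807). NPR1, a natriuretic peptide receptor, rested on few reads, with 1.46 ± 1.503 CPM in GFP and 0.0461 ± 0.0404 in GSTA4. Smooth muscle markers summed to 61.4 to 72.1 CPM in GSTA4, 163 to 206 in GFP, 96.5 to 195 in WT and 75.9 to 81.9 in OSK. TAGLN was lower in GSTA4 than in GFP by log2 -3.56 (edgeR adjusted p = 5.16e-09). Of the 5 tested markers, 1 was higher and 1 lower against GFP, the higher one being ACTA2 (log2 0.43, edgeR adjusted p = 0.0495), whose call was lost without any 1 GFP, GSTA4 or OSK library. Their part in the PRKG1 differences was not tested.

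Of the other list genes around TMEFF2, namely tomoregulins with activin, nodal and PDGF-AA ligands and receptors, 1 of 9 was higher and 3 lower against GFP, and 0 and 2 against WT. The type II activin receptor ACVR2A (log2 -0.81, edgeR adjusted p = 0.000103) and FSTL3 (-0.36, 0.000966), which traps activin, were lower. The paralog TMEFF1 was lower against GFP (-1.48, edgeR adjusted p = 0.0143), a call lost without GSTA4 replicate 2 (0.074), and was not called against WT (-0.79, 0.177) or OSK (0.36, 0.583). The type I receptor ACVR1B was higher against OSK (0.84, edgeR adjusted p = 3.18e-08) and against GFP (0.22, 0.0421), the latter lost without GFP replicate 2 (0.227), GSTA4 replicate 1 (0.121) or 2 (0.0969), or any 1 OSK library (0.0506 to 0.0573). The list median was -0.36 against GFP.

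Among AMPA receptor genes, GRIA2 was the other subunit gene that was higher in GSTA4, at a mean of 4.26 CPM. The subunit genes GRIA1 and GRIA4 had 3 and 4 reads over the GSTA4 group, and 5 of the 18 list genes had none there. GRIA2, which encodes the subunit that limits calcium entry through these channels, had 49, 64 and 71 reads in GSTA4, 19, 22 and 14 in GFP, 7, 10 and 16 in WT, and 2, 11 and 4 in OSK. The GSTA4 libraries were above all others, with log2 1.68 against GFP (SE 0.374, edgeR adjusted p = 0.0018), 2.58 against WT (3.27e-05) and 3.45 against OSK (1.61e-06), the last being 4.27 without OSK replicate 2. Over the 8 tested genes of this list other than GRIA3, 2 were higher and 1 lower against GFP, and 1 and 1 against WT. The further gene higher against GFP was PICK1 (log2 0.25, edgeR adjusted p = 0.0395), which binds the tails of the receptor subunits, a call lost without GFP replicates 1 (0.108) or 2 (0.223), GSTA4 replicates 1 (0.166) or 3 (0.0754), or OSK replicates 1 (0.0526) or 3 (0.0538). SHISA9, an auxiliary protein, was the lower one (log2 -2.51, edgeR adjusted p = 0.019), a call lost without GFP replicate 1 (-1.72, 0.162) or GSTA4 replicates 2 (0.0718) or 3 (0.0876), and the value was -3.38 without GSTA4 replicate 1. For the SLITRK family and LAR-type phosphatases, 1 of 6 was higher and 1 lower against GFP, and as many against WT. PTPRD, a phosphatase that binds SLITRK proteins across the synapse, was lower than in GFP (log2 -0.43, edgeR adjusted p = 0.0229) and higher than in WT (0.46, 0.0134). PTPRS was higher against GFP (0.20, edgeR adjusted p = 0.0301). The calls of PTPRD and PTPRS against GFP were each lost without GFP replicate 3 (0.086 and 0.124) and without several other single libraries, and that of PTPRD against WT without GSTA4 replicate 3 (0.0546) or WT replicate 1 (0.0899). SLITRK4 was lower against WT (-0.31, edgeR adjusted p = 0.00204).

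Of 4 tested neuronal markers, 1 was higher and 0 lower in GSTA4 against GFP, and 1 and 2 against WT. The sum of all 10 was 223 to 237 CPM in GSTA4, 167 to 195 in GFP, 258 to 304 in WT and 223 to 237 in OSK. SNAP25 had 3 reads over the GSTA4 group and STMN2 none, while SYT1 was higher in GSTA4 than in GFP (log2 0.56, edgeR adjusted p = 4.26e-05) and WT (0.35, 0.00281). Against WT, the means of MAP2 and SYP went the other way. MAP2 stood at 87.9 CPM in GSTA4, 84.4 in GFP, 164 in WT and 180 in OSK. SYP stood at 2.36 CPM in GSTA4, 2.34 in GFP, 4.78 in WT and 2.04 in OSK. RPE markers were lower in GSTA4 than in GFP in 8 of 10 tested cases, the list summing to 1557 to 1627 CPM against 2180 to 2512. Against WT (sum 2415 to 2653) 2 were higher and 6 lower, and against OSK (1384 to 1454) 5 were higher and 3 lower. Its part in the level of the 8 genes was not tested.

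**Figure D5:**
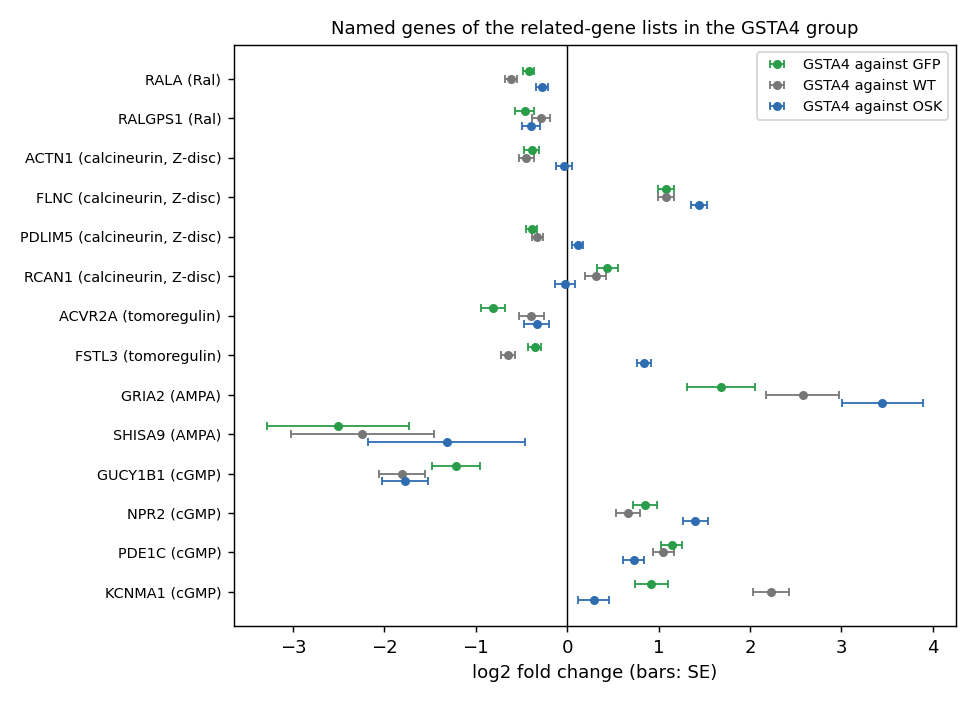
The x axis gives the log2 fold change of GSTA4 against GFP, WT and OSK with its SE, for the genes of the related-gene lists that passed against both GFP and WT in the same direction, at most 4 per list. FLNC, GRIA2, NPR2 and PDE1C are above 0 in all 3 comparisons, while RALA, RALGPS1 and GUCY1B1 are below 0 in all 3.

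Genes whose profile was most like that of the 8 were ordered by Pearson's r of log2 CPM with the mean standardised profile of the 8, over the 12 libraries. The closest was SLC25A36, a mitochondrial pyrimidine nucleotide carrier, at r = 0.991 (281 CPM in GSTA4, 118 in GFP, 91.2 in OSK and 72.8 in WT). LOXL4, a lysyl oxidase of the extracellular matrix, followed at 0.986, with 2.81 ± 0.462 CPM in GFP and 40.5 ± 4.60 in GSTA4. Next came HIBADH (0.985), HSDL2 (0.984), MEAF6 (0.982), LHFPL2 (0.981), DPP4 (0.981) and CENPT (0.979). GSTA4 itself was at place 98 with 0.938. The 8 genes ranged from 0.818 for SLITRK5 to 0.988 for GRIA3, and by Spearman's rho from 0.434 for RALGPS2 to 0.958 for PRKG1. Each of them is part of the profile, so these values cannot be set against those of other genes. These values describe 12 libraries in 4 groups, and by Spearman's rho only 2 of the 8 closest genes stayed among the closest.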

How the data were processed

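The authors deposited unnormalised counts of reads for each gene in 12 libraries. Per the submitters' processing notes, STAR 2.7.1a and featureCounts 1.6.2 were used. Strand setting and annotation release are not given in the sources used here. The members, gene lists and neighbourhood rule were chosen with earlier results of these data known. Lines with no symbol held 0.485% to 0.822% of reads and were left out. Counts were filtered with filterByExpr, TMM scaled and fitted in edgeR 4.0.16 (R 4.3.3) as 1 mean per group over all 12 libraries, without covariates; p-values are two-sided. The fit recovered 163 of 200 changed genes in simulated data with 5 false calls. Common biological variation was 7.91%. A count of 0 allows up to 3 reads. The rule for naming took all 8 members, all neighbours and the 8 most alike. From each list it took up to 4 genes that passed against GFP and WT in the same direction. Not every neighbour is printed here, and marker genes were named after their values were seen. Alternatives were RLE scaling, library size alone, other filters, DESeq2 1.42.0, a replicate block, leaving out each library, fits of 6 or 9 libraries, and other prior counts or pseudocounts. Promoters and positions are from RefSeq (GRCh38.p14), which placed 99.3% of tested genes. Same-numbered libraries correlated at -0.02 to 0.15 and were not treated as pairs. The values of 1 list gene are not reported here.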

Additional observations from a re-analysis of the deposited data

How the results depend on the processing

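No fold change of the 8 genes between GSTA4 and another group changed sign under any alternative run, which their choice for high GSTA4 levels made likely. Each count of called genes stayed within 1.5 times its value. With the replicate number as a block, 4733 genes were called for GSTA4 against GFP (4439 without it), 6104 against WT (5866) and 7475 against OSK (7262), and no call of the 6 tested genes among the other groups changed. Scaling by library size alone turned the share of higher calls for OSK against GFP from 50.4% to 40.0% (2782 higher, 4167 lower), since the median log2 change of all genes moved by -0.07. The same scaling gave 41.2% higher for OSK against WT and 57.5% for GSTA4 against OSK. The prior count of 2 lowered C1orf220 against OSK from log2 6.95 to 5.93. Over the neighbours and list genes, 158 calls were lost and 53 gained, summed over all alternatives. Low counts limit C1orf220, RALGPS2-AS1 and GRIA3 outside GSTA4. Without GFP replicate 1, 1553 in place of 1469 genes had the lowest GSTA4 library above all others.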
